A study of Mus musculus with 32 samples.

Results

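The AP-1 and small Maf transcription factors were followed as 10 genes: the Jun family (Jun, Junb and Jund), the Fos family (Fos, Fosb, Fosl1 and Fosl2), Atf3, and the small Maf factors Maff and Mafk. They were taken by gene symbol from the 36595 identifiers of the count table, where they stand under 11 identifiers because Jund is listed under 2 (ENSMUSG00000071076 and ENSMUSG00000110974) with identical values in every library; it was counted as 1 gene. Of the 10 genes, 9 passed the filter on low counts and were tested among 16428 genes; Fosl1 did not pass.

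Mouse islets kept in culture gave 32 poly(A)-selected RNA-seq libraries. There were 4 groups of 8: hIAPP and then mIAPP islets cultured with 16.7 mM glucose, and hIAPP and then mIAPP islets cultured with 11.1 mM glucose. The hIAPP mice carried the human islet amyloid polypeptide gene at the mouse Iapp locus, placed there by homologous recombination, and the mIAPP mice were their wild-type littermates; the number of copies carried is not stated. All mice were on a C57BL/6NHsd background, aged 10 weeks and of both sexes, and all islets recovered for a night at 11.1 mM glucose before 48 h at the culture concentration. Each of 8 experiment sets held 1 library of every group. The number of animals behind a set is not stated, so p-values measure the spread between these sets. Unlike the mouse peptide, human IAPP assembles into amyloid, the subject named in the title of the series; the comparisons ask whether AP-1 genes differ with it and whether glucose matters.

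AP-1 is a dimer of basic leucine zipper proteins that binds a short palindrome, TGACTCA. A Jun protein pairs with another Jun protein or with a Fos protein, whereas Fos proteins need a Jun partner to bind DNA. Jun, Fos and their close relatives are immediate early genes, switched on by growth factors, calcium, cytokines and stress kinases, and Atf3 is a stress-induced relative that can pair with Jun proteins and often represses. The small Maf proteins have a DNA-binding zipper but no activation domain, and act on antioxidant genes as partners of CNC factors such as Nfe2l2 (NRF2) or of the repressors Bach1 and Bach2.

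Promoter windows of 300 bases (250 before to 50 after the start of transcription, RefSeq, GRCm38.p6) were at hand for 9 of the 10 genes, 11 windows in all. The windows below are shown because each holds a match to a cyclic AMP or AP-1 type element, printed in capitals together with a kappaB match in Fos. They lie at chr4:95052173-95052472 (minus strand) for Jun, chr12:85473640-85473939 (plus) for Fos, chr1:191183284-191183583 (minus) for Atf3 and chr15:79347270-79347569 (plus) for the second of 3 Maff windows.
Jun: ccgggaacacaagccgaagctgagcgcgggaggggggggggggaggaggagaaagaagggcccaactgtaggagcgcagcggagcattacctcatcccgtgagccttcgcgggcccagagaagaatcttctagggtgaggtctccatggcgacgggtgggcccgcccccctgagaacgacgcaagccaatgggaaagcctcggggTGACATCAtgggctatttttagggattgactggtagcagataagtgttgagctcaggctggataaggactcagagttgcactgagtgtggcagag
Fos: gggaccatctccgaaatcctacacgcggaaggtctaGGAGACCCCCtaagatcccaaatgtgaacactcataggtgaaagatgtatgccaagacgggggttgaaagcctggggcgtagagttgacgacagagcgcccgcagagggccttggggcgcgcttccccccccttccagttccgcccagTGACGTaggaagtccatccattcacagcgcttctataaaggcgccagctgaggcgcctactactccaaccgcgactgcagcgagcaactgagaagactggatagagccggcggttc
Atf3: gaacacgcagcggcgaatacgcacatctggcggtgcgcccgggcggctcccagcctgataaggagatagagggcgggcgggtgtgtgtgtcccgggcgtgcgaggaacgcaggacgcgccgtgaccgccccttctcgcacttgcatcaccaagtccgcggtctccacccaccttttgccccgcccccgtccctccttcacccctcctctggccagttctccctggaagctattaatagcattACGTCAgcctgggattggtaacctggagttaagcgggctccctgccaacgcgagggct
Maff: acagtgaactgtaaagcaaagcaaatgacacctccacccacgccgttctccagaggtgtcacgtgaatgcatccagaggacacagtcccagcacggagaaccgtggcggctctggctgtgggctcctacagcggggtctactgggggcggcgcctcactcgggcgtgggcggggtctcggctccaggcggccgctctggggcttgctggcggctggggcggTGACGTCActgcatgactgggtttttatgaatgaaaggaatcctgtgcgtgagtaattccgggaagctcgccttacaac

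The Jun window held TGACATCA at positions -45 to -38 from the start. The Fos window held TGACGT at -66 to -61 and a kappaB match at -214 to -205, and the Atf3 window held ACGTCA, the same element on the other strand, at -8 to -3. The Maff window held the full cyclic AMP response element TGACGTCA at -29 to -22, which contains TGACGT on both strands, and the third Maff window held TGACATCA at -45 to -38. Fosb and Fosl2 each had 1 kappaB match, and the windows of Junb, Jund and Mafk had no match to any motif searched. The starts are RefSeq's and need not be those of the GENCODE M21 genes given below: the Jund window ends at 70697788, upstream of the GENCODE start of Jund at 70698949, and the Atf3 window lies inside the GENCODE gene. Both strands were searched for 7 motifs. Among all 32817 promoter windows of this length, TGACTCA was found in 5.2%, TGACGTCA in 1.79%, TGACGT in 7.51%, TGACATCA in 3.62%, TGCTGAC, a part of the Maf recognition element, in 4.67%, the CArG box in 1.63% and the kappaB site in 5.8%. The motifs TGACGT and TGACATCA were added after the windows had been read. A match describes the letters of a window and not a bound site.

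The libraries held 16.1 to 43.7 M counts. The share from mitochondrially encoded genes moved with the groups: its median was 3.5% (2.68 to 6.76%) in hIAPP islets at 16.7 mM, 7.29% (2.84 to 37.0%) in mIAPP islets at 16.7 mM, 18.1% (5.23 to 27.2%) in hIAPP islets at 11.1 mM and 20.4% (3.49 to 34.7%) in mIAPP islets at 11.1 mM, and the library at 37.0%, mIAPP set 7, stood apart. Beta cell markers were abundant in every library, their sum being 135000 to 199000 CPM (counts scaled to library size, with TMM factors) in hIAPP islets at 16.7 mM against 161000 to 253000 in mIAPP islets at 16.7 mM, and 6 of 9 were lower in hIAPP islets at 16.7 mM. The 6 endothelial markers summed to 10.2 to 33.5 CPM against 22.7 to 77.4 CPM at 16.7 mM, with 4 lower in hIAPP islets. The 6 ductal markers, of which 5 were tested, summed to 591 to 1320 against 457 to 894 CPM, with 1 higher, and the 7 macrophage markers to 80.9 to 161 against 81.8 to 179 CPM, with 1 higher. The 5 T and B cell markers summed to 0.845 to 2.66 against 1.22 to 9.78 CPM, and 2 of the 3 tested were lower in hIAPP islets. The 5 neutrophil markers summed to 1.2 to 30.7 CPM in hIAPP islets at 16.7 mM, where Ly6g and Elane were at 0, against 0 to 0.223 CPM in mIAPP islets at 16.7 mM, where S100a9, Ly6g and Elane were at 0. Among all genes tested, 9.27% were higher and 11.2% lower in hIAPP islets at 16.7 mM. In whole islets, fewer cells of a type and less RNA per cell cannot be told apart. The part of these markers in the results on AP-1 genes was not tested.

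In high glucose the AP-1 and small Maf genes were higher in islets with human IAPP: at 16.7 mM, 8 of the 9 genes tested were higher in hIAPP islets and 0 were lower (edgeR's quasi-likelihood test with the set as a block, Benjamini-Hochberg adjusted p below 0.05). Among all genes tested 9.27% were higher and 11.2% lower. The members were chosen with earlier results of these data known, so this count describes them and is not a test of the family. Atf3 was 2.93-fold, Jun 2.77-fold, Maff 2.31-fold, Junb 2.17-fold and Fosl2 2.13-fold higher, whereas Fos was 1.73-fold, Jund 1.24-fold and Mafk 1.19-fold higher and Fosb did not pass the threshold. The median log2 fold change of the 9 genes was 1.09, against -0.01 over all genes tested. For 5 of the 9, Jun, Fosl2, Atf3, Maff and Mafk, the lowest hIAPP library lay above the highest mIAPP library, which held for 2.39% of all genes.

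**Figure D1:**
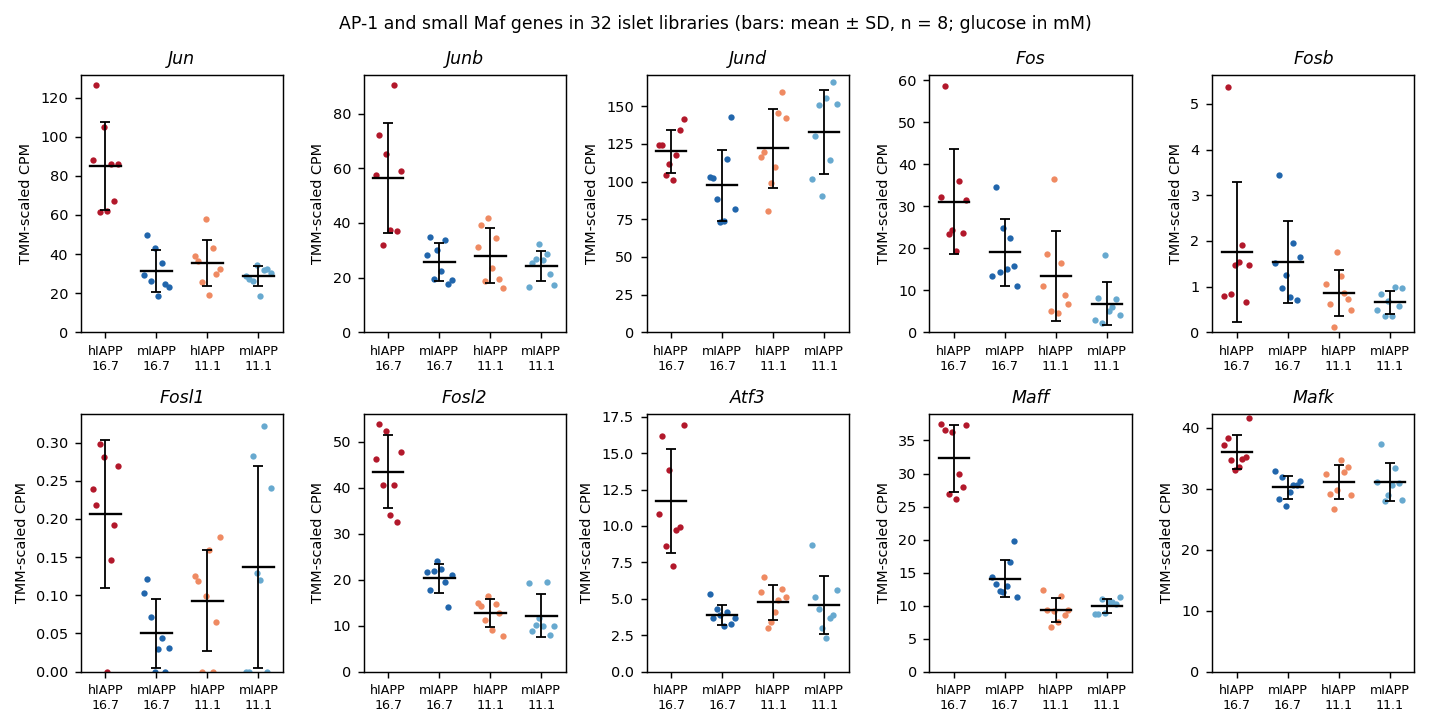
TMM-scaled CPM of the 10 AP-1 and small Maf genes in each library (points), with the mean and SD of 8 libraries (bars), by genotype and glucose in mM. Jun, Fosl2 and Maff in hIAPP islets at 16.7 mM stand above every library of the other 3 groups, Atf3 overlaps only with the highest mIAPP library at 11.1 mM (8.67 CPM), while Jund and Fosb spread across the groups.

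Among the Jun proteins, Jun (ENSMUSG00000052684, GRCm38 chromosome 4, 95049034 to 95052222, a gene of a single exon), the strongest activator of the family, changed most. Its level had a lowest, median and highest value of 61.3, 86.0 and 126 CPM in hIAPP islets at 16.7 mM, against 18.8, 27.8 and 50.0 CPM in mIAPP islets at 16.7 mM. The lowest hIAPP library exceeded the highest mIAPP library, and Jun was higher in 8 of 8 sets, by 1.22 (set 3) to 1.86 (set 8) on the log2(CPM + 0.5) scale. The fitted log2 fold change was 1.47 ± 0.11 (SE, adjusted p = 7.6e-10). At 11.1 mM the values were 19.4, 34.4 and 58.1 CPM in hIAPP islets and 18.6, 29.5 and 34.6 CPM in mIAPP islets, and here the groups overlapped.

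Junb (ENSMUSG00000052837, chromosome 8, 84974484 to 84978718), a weaker activator that can restrain Jun, was at 31.8, 58.4 and 90.6 CPM (lowest, median and highest) in hIAPP islets, against 17.8, 25.3 and 34.9 CPM in mIAPP islets at 16.7 mM. The groups overlapped in level, but hIAPP was higher within 8 of 8 sets (log2 1.12 ± 0.14, SE, adjusted p = 3.01e-06). Jund (chromosome 8, 70698949 to 70700616), the member that most cells hold at a steady level, was at 101, 121 and 142 CPM in hIAPP islets against 73.2, 95.4 and 143 CPM in mIAPP islets at 16.7 mM. It was higher in 7 of 8 sets, with set 7 the exception, and its log2 change of 0.32 ± 0.11 lay at the threshold (adjusted p = 0.0497). Without the replicate block Jund changed by 0.295 with an adjusted p of 0.185, and it also missed the threshold in 10 other alternatives, 6 of which left out 1 set. Junb overlaps Prdx2 on the opposite strand, and whether the counting used strand is not stated, so reads from the overlap might be shared. How many were shared was not measured.

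Among the Fos proteins, Fosl2 (ENSMUSG00000029135, chromosome 5, 32135801 to 32157842), a late and longer-lived Fos relative that lacks the strong activation domain of Fos, was at 32.6, 43.4 and 53.7 CPM in hIAPP islets against 14.1, 21.3 and 24.2 CPM in mIAPP islets at 16.7 mM. The groups did not overlap and all 8 sets were higher, giving a log2 change of 1.09 ± 0.15 (SE, adjusted p = 7.07e-06). Fos (ENSMUSG00000021250, chromosome 12, 85473890 to 85477273), the founding immediate early gene, was at 19.3, 27.9 and 58.5 CPM in hIAPP islets against 11, 15.4 and 34.6 CPM in mIAPP islets at 16.7 mM. Fos was higher in 7 of 8 sets (log2 0.79 ± 0.24, adjusted p = 0.0242), and the groups overlapped. The call on Fos was lost without the block (0.716, adjusted p = 0.227), with the mitochondrial level as a covariate (0.619, adjusted p = 0.38), without mIAPP set 7 (0.779, adjusted p = 0.0503) and without set 1, 2, 6 or 8.

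Fosb (ENSMUSG00000003545, chromosome 7, 19302696 to 19310051), known for its long-lived truncated form in neurons, was scarce, at 0.655, 1.48 and 5.38 CPM in hIAPP islets against 0.715, 1.39 and 3.45 CPM in mIAPP islets at 16.7 mM. Its log2 change was 0.09 ± 0.32 (adjusted p = 0.87), with 3 sets higher and 5 lower, by -0.64 to 0.67 within a set on the log2(CPM + 0.5) scale, so the sets went both ways. Its counts summed to 532 in hIAPP and 384 in mIAPP islets, and its CV over libraries was 86.9% and 57.8%. Fosl1 (ENSMUSG00000024912, chromosome 19, 5447547 to 5455946), the Fra-1 gene, was the scarcest. Its counts over 8 libraries summed to 59 against 13 at 16.7 mM (hIAPP against mIAPP), and to 19 against 28 at 11.1 mM, with 0 to 12 counts in a library. A floor of 3 counts per library stood at a mean of 0.0895 CPM in hIAPP libraries and 0.101 CPM in mIAPP libraries at 16.7 mM. Mean Fosl1 levels there were 0.206 and 0.0501 CPM, so no fold is given. Fosl1 overlaps Ccdc85b on the opposite strand.

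Atf3 (ENSMUSG00000026628, chromosome 1, 191170296 to 191218039) was at 7.29, 10.4 and 17.0 CPM in hIAPP islets against 3.12, 3.77 and 5.33 CPM in mIAPP islets at 16.7 mM. The groups did not overlap, all 8 sets were higher, and the log2 change of 1.55 ± 0.17 (SE, adjusted p = 3.98e-07) was the largest among the 9 genes. The difference within a set ran from 0.92 in set 3 to 2.07 in set 8 on the log2(CPM + 0.5) scale.

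Maff and Mafk both rose, by different amounts. The small Maf gene Mafg, outside these 10 genes, overlapped between genotypes at 16.7 mM. It was at 113 to 144 CPM in hIAPP and 116 to 145 CPM in mIAPP islets. Maff (ENSMUSG00000042622, chromosome 15, 79346621 to 79359076), the inducible member, was at 26.1, 33.1 and 37.5 CPM in hIAPP islets against 11.3, 13.1 and 19.8 CPM in mIAPP islets at 16.7 mM. Its groups did not overlap (log2 1.21 ± 0.12, SE, adjusted p = 6.65e-08), and the smallest difference within a set, 0.48, was in set 7, where the mIAPP library stood apart. Mafk (ENSMUSG00000018143, chromosome 5, 139791513 to 139802653), which most tissues express, was at 33.0, 35.1 and 41.6 CPM against 27.3, 30.6 and 33.0 CPM. This change was small (log2 0.25 ± 0.07, adjusted p = 0.0121), yet all 8 sets were higher and the groups just missed overlapping. Mafk overlaps Tmem184a on the opposite strand.

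**Figure D2:**
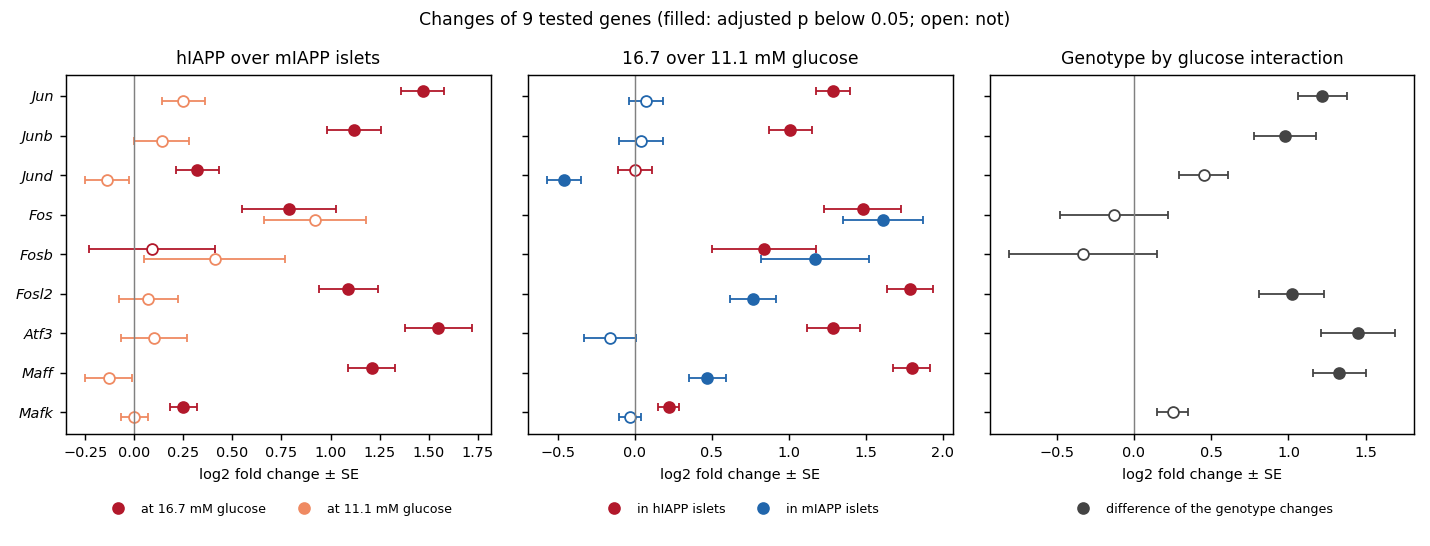
Log2 fold changes (points) with their SE (bars) of the 9 tested genes for hIAPP over mIAPP islets, for 16.7 over 11.1 mM glucose, and for the interaction. Filled points have an adjusted p below 0.05. At 16.7 mM 8 genes are higher in hIAPP islets, at 11.1 mM 0 pass, and the interaction passes for Jun, Junb, Fosl2, Atf3 and Maff.

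At 11.1 mM glucose none of these differences passed the test. By edgeR 0 of the 9 genes differed between hIAPP and mIAPP islets, where 0.11% of all genes were higher and 0.0183% lower; at an unadjusted p below 0.05 there were 2, Fos and Jun. DESeq2, limma and the other alternatives also called 0. The groups overlapped for every member, while 0.0791% of all genes had every hIAPP library above every mIAPP library. Their median log2 change was 0.10, against 0.00 over all genes. Fos differed most, at 4.49, 9.87 and 36.4 CPM in hIAPP islets against 2.34, 5.52 and 18.4 CPM in mIAPP islets. It was higher in 7 of 8 sets (log2 0.92 ± 0.26, SE, unadjusted p = 0.00144, adjusted p = 0.494), and 0.711 without the hIAPP library of set 4 (adjusted p = 0.853). By the same edgeR test Fos changed by 0.79 at 16.7 mM, with an unadjusted p of 0.00328. Its call at 16.7 mM and not at 11.1 mM thus came from the adjustment over all genes, and not from a larger change. Jun changed by 0.25 ± 0.11 (adjusted p = 0.722) and Fosb by 0.41 ± 0.36 (adjusted p = 0.804), and the other genes by -0.14 to 0.14.

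Whether the genotype difference depends on glucose was tested by the interaction, the log2 change between genotypes at 16.7 mM minus that at 11.1 mM. It passed for 5 of the 9 genes, all higher, against 2.17% higher and 0.95% lower among all genes. These were Atf3 (1.45 ± 0.24, SE, adjusted p = 0.000726), Maff (1.33 ± 0.17, adjusted p = 2.95e-05), Jun (1.22 ± 0.16, adjusted p = 3.96e-05), Fosl2 (1.02 ± 0.21, adjusted p = 0.00451) and Junb (0.98 ± 0.20, adjusted p = 0.00454), each positive in 8 of 8 sets. Mafk was also positive in 8 of 8 sets but small (0.25 ± 0.10, adjusted p = 0.158), and Jund was at 0.45 ± 0.16 (adjusted p = 0.124). Fos (-0.13 ± 0.35, adjusted p = 0.88) and Fosb (-0.33 ± 0.48, adjusted p = 0.758) gave estimates near 0 with wide errors, and Fos turned to 0.064 without the hIAPP library of set 4 at 11.1 mM. The median over the 9 genes was 0.98, against -0.02 over all genes. Junb missed the threshold without the replicate block (0.924, adjusted p = 0.176) and with the mitochondrial covariate (0.743, adjusted p = 0.0721); the other 4 passed under both.

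Within each genotype, 16.7 mM was then set against 11.1 mM glucose. In hIAPP islets 8 of 9 genes were higher at 16.7 than at 11.1 mM and 0 lower, where 32.2% of all genes were higher and 33.3% lower, and the libraries of Jun, Fosl2, Atf3 and Maff did not overlap, as for 14.3% of all genes. In mIAPP islets 4 were higher and 1 lower, where 24.9% of all genes were higher and 22.7% lower, and the groups overlapped for all 9 while 2.64% of all genes had every library higher. The medians were 1.29 in hIAPP islets, against -0.02 over all genes, and 0.07 in mIAPP islets, against -0.03. The 2 glucose comparisons share no library, but each shares its libraries with the genotype comparisons.

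Maff and Fosl2 rose with glucose in both genotypes. Maff rose 3.49-fold in hIAPP islets (log2 1.8 ± 0.12, SE, adjusted p = 4.97e-12), where its highest library at 11.1 mM was 12.4 CPM against a lowest of 26.1 CPM at 16.7 mM. In mIAPP islets Maff rose 1.39-fold (0.47 ± 0.12, adjusted p = 0.00221). Fosl2 rose 3.46-fold in hIAPP islets, with 7.86, 13.6 and 16.4 CPM at 11.1 mM as the low side (log2 1.79 ± 0.15, adjusted p = 2.56e-10). In mIAPP islets Fosl2 rose 1.71-fold, over 7.93, 10.1 and 19.6 CPM at 11.1 mM (0.77 ± 0.15, adjusted p = 0.000155).

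Jun, Junb and Atf3 rose with glucose in hIAPP islets, by 1.29 ± 0.11 (adjusted p = 5.41e-10), 1.01 ± 0.14 (adjusted p = 1.08e-06) and 1.29 ± 0.17 (adjusted p = 4.76e-07) on the log2 scale. In mIAPP islets they did not pass: Jun was at 0.07 ± 0.11 (adjusted p = 0.614), Junb at 0.04 ± 0.14 (adjusted p = 0.84) and Atf3 at -0.16 ± 0.17 (adjusted p = 0.454). The interaction above is the test of that difference. Atf3 ran from 2.97 to 6.50 CPM in hIAPP and from 2.28 to 8.67 CPM in mIAPP islets at 11.1 mM, which overlapped each other and the mIAPP libraries at 16.7 mM; the highest mIAPP library, set 1, exceeded the lowest hIAPP library at 16.7 mM. Mafk rose by 0.22 ± 0.07 in hIAPP islets (adjusted p = 0.00734) and 0.156 without set 8 (adjusted p = 0.0672), and was at -0.03 ± 0.07 in mIAPP islets (adjusted p = 0.703).

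Fos and Fosb rose with glucose in both genotypes. Fos rose 2.80-fold in hIAPP islets (log2 1.48 ± 0.25, SE, adjusted p = 1.82e-05), in 7 of 8 sets, and in mIAPP islets by 3.06-fold, with 8 of 8 sets higher (1.61 ± 0.26, adjusted p = 1.99e-05). Set 4 was the exception in hIAPP islets, where Fos was at 24.3 CPM at 16.7 mM and 36.4 CPM at 11.1 mM. Fosb rose by 0.84 ± 0.34 in hIAPP islets (adjusted p = 0.0332), a call that was lost without set 2 (0.511, adjusted p = 0.182), 3, 6 or 8 and with the mitochondrial covariate (1.155, adjusted p = 0.15). In mIAPP islets Fosb rose by 1.17 ± 0.35 (adjusted p = 0.0073), in 8 of 8 sets. Jund moved the other way: it fell by 0.46 ± 0.11 in mIAPP islets (adjusted p = 0.00203), with a mean of 97.6 ± 23.6 CPM at 16.7 mM against 133 ± 27.9 CPM at 11.1 mM (SD, n = 8), and in hIAPP islets it was at 0.00 ± 0.11 (adjusted p = 0.993), with 120 ± 14.1 against 122 ± 26.2 CPM.

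The make-up of the Jun family differed with these changes. To compare genes, CPM were divided by the length of the merged exons in kb (GENCODE M21). Merged exons can be longer than the transcript present, which would lower a gene on this scale. The counts of Jund stand duplicated under another identifier, and how transcripts were summed is not given. The level of Jund and the family shares below carry that uncertainty. On this scale Jund was the most abundant of the 10 genes in every group, at 71.8 CPM per kb (hIAPP) and 58.5 (mIAPP) with 16.7 mM glucose, and at 72.9 (hIAPP) and 79.5 (mIAPP) with 11.1 mM. The other means in hIAPP islets at 16.7 mM were 26.7 for Jun, 24.5 for Junb, 13.2 for Fos, 12.5 for Maff, 9.26 for Mafk, 5.42 for Atf3, 4.49 for Fosl2, 0.282 for Fosb and 0.101 for Fosl1. The means of Jun and Junb lay closer there than their SD of 7.05 and 8.75, as did those of Fos and Maff (5.27 and 1.96). These genes were measured in the same libraries, and their differences within a library were not tested. In mIAPP islets at 11.1 mM the order after Jund was Junb at 10.6, Jun at 9.03, Mafk at 7.97, Maff at 3.87, Fos at 2.92, Atf3 at 2.13, Fosl2 at 1.26, Fosb at 0.106 and Fosl1 at 0.0673 CPM per kb, so Fos and Maff stood below Mafk there and above it in hIAPP islets at 16.7 mM.

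**Figure D3:**
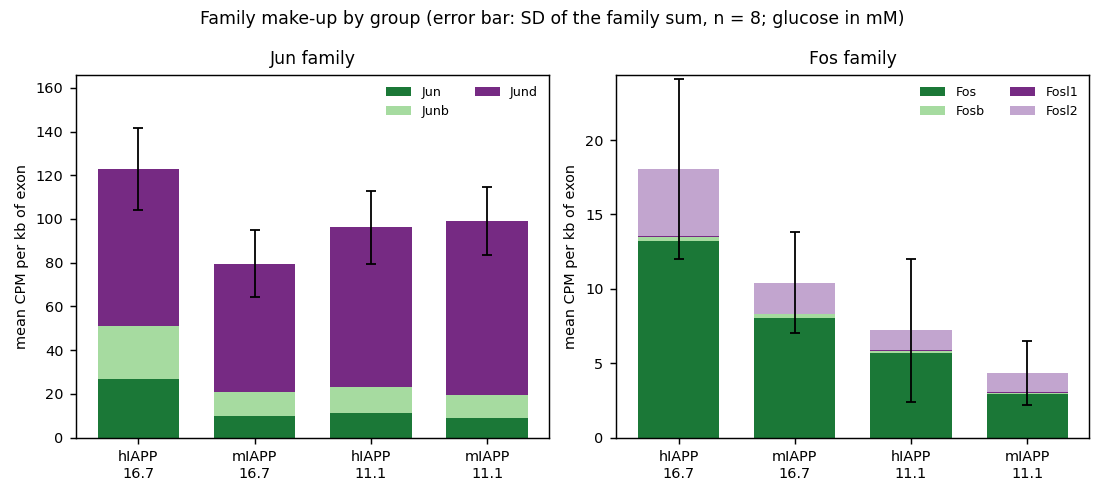
Mean CPM per kb of exon of the Jun family (left) and the Fos family (right) in the 4 groups, stacked by gene; the error bar is the SD of the family sum over 8 libraries. Jund makes up 59.0% of the Jun family in hIAPP islets at 16.7 mM and 73.3 to 79.6% in the other groups.

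Jun made up 21.5 ± 3.25% of the Jun family (SD, n = 8) in hIAPP islets at 16.7 mM, against 12.4 ± 3.77% in mIAPP islets at 16.7 mM, and at 11.1 mM 11.6 ± 3.58% in hIAPP and 9.41 ± 2.64% in mIAPP islets. Jund took 59.0 ± 6.72% in hIAPP against 73.3 ± 6.70% in mIAPP islets at 16.7 mM, and 75.5 ± 7.19% and 79.6 ± 5.40% at 11.1 mM. The Jun family summed to 123 ± 18.7 CPM per kb in hIAPP against 79.5 ± 15.4 in mIAPP islets at 16.7 mM, and 96.2 ± 16.7 and 99.1 ± 15.6 at 11.1 mM. Fos was on average the main transcript of the Fos family, at 72.1 ± 4.84% (hIAPP) and 75.7 ± 6.99% (mIAPP) with 16.7 mM glucose, and at 74.5 ± 9.22% and 62.1 ± 17.3% at 11.1 mM, with Fosl2 next at 21.7 to 33.3%. In mIAPP islets at 11.1 mM the share of Fos ran from 36.9 to 84.9% over the libraries and that of Fosl2 from 13.2 to 60.8%, and Fosl2 exceeded Fos in sets 1 and 3. These shares were not tested.

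The genes whose pattern over the 32 libraries lay nearest to each member were found by the root mean square difference of centred log2(CPM + 0.5) among 13146 genes with a mean of at least 1 CPM, where a smaller value is a closer match. For both Jun and Junb it was Dusp1, a phosphatase that switches MAP kinases off, at 0.31 and 0.28, against medians of 0.78 and 0.68 over all genes. Jun came next to Dusp10 (0.36), another such phosphatase, and to Junb (0.37). Fos lay nearest to Egr1, an immediate early zinc finger factor, at 0.56 against a median of 1.11. Fosl2 lay nearest to Prkar1a, a regulatory subunit of protein kinase A (0.29, median 0.83), Atf3 to the tubulin gene Tubb2b (0.32) and the co-chaperone gene Bag3 (0.39, median 0.76), and Maff to Lmo1 (0.25, median 0.77). Among the members, Jun and Junb (0.37) and Fosl2 and Maff (0.39) lay closer to each other than to a flat level, from which they lay at 0.73, 0.63, 0.81 and 0.72. Fos lay at 0.72 from Jun, 1.01 from Atf3 and 1.20 from Jund. Jund and Mafk varied little: they lay at 0.32 and 0.15 from a flat level and at 0.31 from each other, so that value shows no shared pattern. They lay nearest to Tapbp (0.15, median 0.51) and Rbm17 (0.12, median 0.41). Fosb, with few counts, lay at 0.49 from its nearest genes, Pnrc1 and Rell1, against a median of 0.71.

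Of 20 genes known as AP-1 targets 18 were tested. At 16.7 mM 9 of them were higher in hIAPP islets and 1 lower, where 9.27% of all genes were higher and 11.2% lower. The median log2 change of the 18 was 0.62. This list and those below were chosen with earlier results of these data known. Their counts therefore describe the genes listed and are not a test of AP-1 activity. The chemokine genes Cxcl1 and Ccl2 changed most. Cxcl1 was at 3.69 to 13.8 CPM in hIAPP against 0.06 to 0.67 CPM in mIAPP islets (log2 5.63 ± 0.53, SE, adjusted p = 4.26e-08), and Ccl2 at 2.19 to 6.02 against 0 to 0.334 CPM (4.59 ± 0.56, adjusted p = 2.02e-06). The cytokine gene Lif was at 1.92 to 7.58 against 0.488 to 2.32 CPM (1.88 ± 0.30, adjusted p = 9.54e-05). The interaction also passed for these 3 genes and, with a negative sign, for Hbegf. At 11.1 mM 0 of the 18 passed, where 0.11% of all genes were higher and 0.0183% lower. With glucose 10 of 18 rose and 2 fell in hIAPP islets, where 32.2% of all genes rose and 33.3% fell. In mIAPP islets 5 rose and 2 fell, where 24.9% of all genes rose and 22.7% fell. The share of all genes that rose in mIAPP islets was near that of these targets. These cytokine genes are also induced by NF-kappaB. Of the 5 neutrophil markers only S100a9 was tested, and it was higher in hIAPP islets at 16.7 mM. There S100a8 was at 0.116 to 7.96 CPM in hIAPP against 0 to 0.0257 CPM in mIAPP islets. The mean of Mpo was 0.0431 against 0.0646 CPM, below the floor of 3 counts, and Ly6g and Elane were at 0 in both genotypes.

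**Figure D4:**
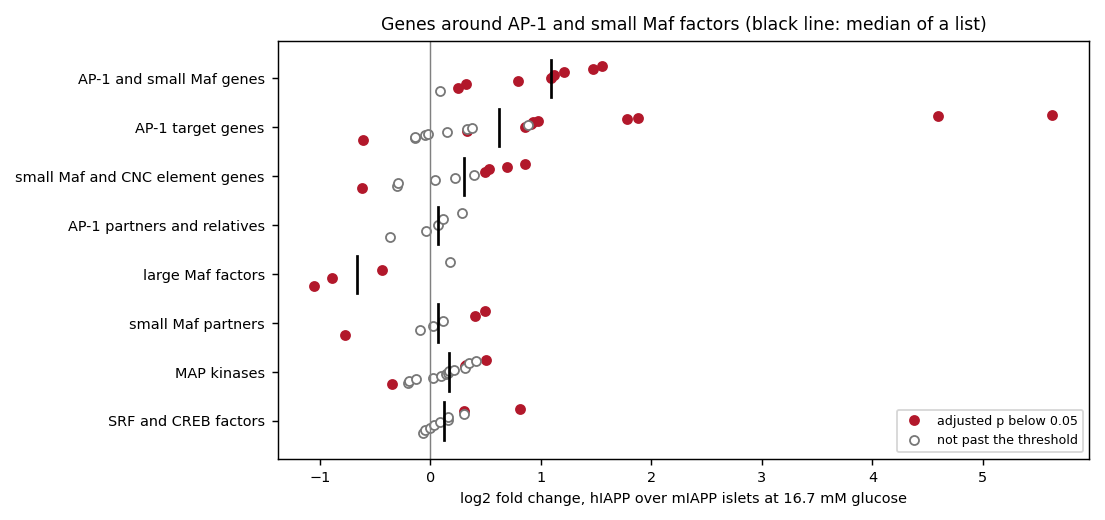
Log2 fold changes of hIAPP over mIAPP islets at 16.7 mM glucose for each tested gene of the 9 AP-1 and small Maf genes and of 7 lists around them; red points have an adjusted p below 0.05 and black lines are medians. The AP-1 and small Maf genes have a median of 1.09, AP-1 targets 0.62 and large Maf factors -0.66.

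Genes with a small Maf and CNC element, which guard against oxidants, were higher in part. At 16.7 mM 4 of 10 were higher and 1 lower (median 0.30), where 9.27% of all genes were higher and 11.2% lower. Srxn1, which repairs peroxiredoxins, was at 177 to 248 CPM in hIAPP against 98.4 to 150 CPM in mIAPP islets (log2 0.69 ± 0.07, SE, adjusted p = 2.31e-07). Txnrd1, thioredoxin reductase, was at 199 to 244 against 119 to 176 CPM (0.49 ± 0.07, adjusted p = 4.41e-05), and the haem oxygenase gene Hmox1 at 34.0 to 72.1 against 19.7 to 32.2 CPM (0.86 ± 0.17, adjusted p = 0.000944). Hmox1 stands in the AP-1 target list too. The interaction passed for Srxn1 and Txnrd1.

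The list of partners of the small Maf proteins, in which Mafg was also counted, changed less (median 0.06). Of its 6 tested genes 2 were higher and 1 lower, beside 9.27% and 11.2% of all genes. Bach1, a repressor of Hmox1, was higher (log2 0.49 ± 0.16, SE, adjusted p = 0.0291), as was Nfe2l2 (0.40 ± 0.13, adjusted p = 0.0351), while Bach2 was lower (-0.77 ± 0.23, adjusted p = 0.02). Bach1 and Nfe2l2 lost the call without the replicate block (adjusted p = 0.195 and 0.225), with the mitochondrial covariate, where their changes were 0.02 and 0.072, and without mIAPP set 7 (adjusted p = 0.0879 and 0.107). Both also lost it without set 1, 2, 6 or 7. Bach2 lost it with that covariate (adjusted p = 0.185), without set 2 (adjusted p = 0.0549) and without set 7 (adjusted p = 0.053). The large Maf factors, which have an activation domain, went down, with a median of -0.66. Of these 4, 3 were lower and 0 higher, against 11.2% and 9.27% of all genes. Mafa, an activator of the insulin genes in beta cells, was at 270 to 648 CPM in hIAPP against 503 to 834 CPM in mIAPP islets (-0.44 ± 0.12, adjusted p = 0.0099), overlapping between groups, with the beta cell markers, of which it is one, lower as given above. Maf was at -1.05 ± 0.19 (adjusted p = 0.000367) and Nrl at -0.89 ± 0.31 (adjusted p = 0.0436). Without the replicate block Mafa and Nrl missed the threshold (adjusted p = 0.0537 and 0.0834), as did all 3 with the mitochondrial covariate (adjusted p = 0.0706 for Maf, 0.139 for Mafa and 0.725 for Nrl), and Nrl also without mIAPP set 7 (-0.663, adjusted p = 0.156).

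Upstream of AP-1, 3 of 16 MAP kinase genes were higher and 1 lower at 16.7 mM (median 0.16). Among all genes 9.27% were higher and 11.2% lower. Map2k3, which activates p38 kinases, was at 26.2 to 37.1 CPM in hIAPP against 20.7 to 24.8 CPM in mIAPP islets, without overlap (log2 0.50 ± 0.08, SE, adjusted p = 8.84e-05), and its interaction passed. Map2k4 was higher (0.31 ± 0.10, adjusted p = 0.0322) and Map2k2 lower (-0.35 ± 0.12, adjusted p = 0.0341); both lost the call without the block (adjusted p = 0.215 and 0.161), with the mitochondrial covariate (0.031 and -0.05) and without mIAPP set 7 (adjusted p = 0.0815 and 0.107). Of the 10 SRF and CREB genes, which act on the Fos and Jun promoters, 2 were higher and 0 lower (median 0.12). The shares of all genes were again 9.27% and 11.2%. Crem, a cyclic AMP responsive factor, was at 76.2 to 103 CPM in hIAPP against 45.8 to 58.3 CPM in mIAPP islets (0.81 ± 0.10, adjusted p = 2.02e-06), and its interaction passed. Mrtfb, a cofactor of SRF, was at 0.30 ± 0.10 (adjusted p = 0.03), and lost the call without the block (adjusted p = 0.153), with the covariate (adjusted p = 0.799) and without mIAPP set 7 (adjusted p = 0.076). Among other zipper partners and relatives of AP-1, such as Atf7, Ddit3 and Atf2, 0 of 5 tested passed at 16.7 mM by edgeR (0 at an unadjusted p below 0.05; median 0.07). At 11.1 mM 0 genes passed in each of these lists, where 0.11% of all genes were higher and 0.0183% lower. With so few calls over all genes, a count of 0 says little about short lists.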

How the data were processed

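Poly(A)-selected libraries were made with a directional kit, per the labels' protocols; reads were demultiplexed with bcl2fastq 1.8.4 and quantified with kallisto 0.45.0 on GRCm38, per the submitters' processing notes. The authors deposited expected counts (estimated reads per gene) as whole numbers for 36595 Ensembl identifiers, not scaled for depth; how transcripts were summed or rounded, and whether strand was used, is not given in the sources used here. In it, 1399 identifiers share a symbol with another (617 symbols, 405 of them with identical values). Group and set came from the labels, which say that each of 8 sets held the 4 groups, so the replicate number marks a shared set. After group means were removed, deviations of libraries from 1 set had a mean r across genes of 0.17 to 0.36 per pair of groups, and a lowest r of -0.23 to 0.056.

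All 32 libraries entered 1 edgeR 4.0.16 quasi-likelihood fit (R 4.3.3; TMM, filterByExpr by group, robust estimation) with the set as a block and 21 residual degrees of freedom; 5 comparisons were tested, Benjamini-Hochberg adjusted over 16428 genes at 0.05, with no minimum fold. Levels are TMM-scaled CPM with SD (n = 8). DESeq2 1.42.0, limma 3.58.1 voom and other alternatives were run, and the fitting code was tested on simulated data. Totals of 16.1 to 43.7 M counts set the precision, and the floor of 3 counts covers counting error only. All 10 members are named, and up to 3 genes of the smallest p per list. Hbegf, S100a9, Mafg, Nqo1, Fth1 and Ftl1, chosen after their values were seen, stand outside that rule, as do the other neutrophil markers. Mkl1 and Mkl2 in the SRF list are older names of Mrtfa and Mrtfb. The members and lists were chosen with earlier results of these data known. Promoter sequences are RefSeq's.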

Additional observations from a re-analysis of the deposited data

Results flagged for a closer look

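In 5 groups 1 library stood far from the other 7, among 40 groups of 8 libraries looked at (10 genes in 4 groups). The cut-off used gives about 1 in 20 for independent, normally distributed values. CPM need not be normal and the genes share libraries, so the 5 cannot be read against that rate. Set 2 gave 3 of them: Fos in hIAPP islets at 16.7 mM was 58.5 CPM with 35.9 the next highest, Fosb in hIAPP islets at 16.7 mM was 5.38 CPM with 1.91 next, and Fosb in mIAPP islets at 16.7 mM was 3.45 CPM with 1.95 next. Set 4 gave the other 2: Fos was 36.4 CPM in hIAPP islets at 11.1 mM with 18.6 next, and 18.4 CPM in mIAPP islets at 11.1 mM with 8.21 next. The mitochondrial share in these 2 libraries of set 4 was 6.49% and 5.25%, low for their groups. Set 3 at 11.1 mM, with 5.23% (hIAPP) and 3.49% (mIAPP), had Fos at 5.07 and 2.34 CPM. Whether the level of Fos goes with this share was not tested.

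The difference between genotypes differed between glucose levels for 5 of the members by the interaction term of edgeR: 1.45 for Atf3, 1.33 for Maff, 1.22 for Jun, 1.02 for Fosl2 and 0.98 for Junb on the log2 scale, higher in 8 of 8 sets each. Among the genes around them it passed for Cxcl1 (5.84, adjusted p = 0.00154), Ccl2 (4.19, adjusted p = 0.00454), Lif (2.04, adjusted p = 0.00707), Map2k3 (0.68, adjusted p = 0.000726), Srxn1 (0.68, adjusted p = 0.000312), Crem (0.61, adjusted p = 0.015), Txnrd1 (0.51, adjusted p = 0.00572) and Hbegf (-0.6, adjusted p = 0.0482).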

How the results depend on the processing

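The counts of members past the threshold ran over 18 alternatives from 6 to 8 (8 in the reported fit) between genotypes at 16.7 mM, 0 at 11.1 mM, 6 to 8 (8) with glucose in hIAPP islets, 5 (5) in mIAPP islets and 4 to 5 (5) for the interaction. Without the replicate block these counts were 6, 0, 8, 5 and 4, and the block changed no member's call other than Jund and Fos at 16.7 mM and Junb in the interaction. Jun, Junb, Fosl2, Atf3, Maff and Mafk kept their calls at 16.7 mM in all 18. At 16.7 mM Jund lost its call also with no low-count filter (adjusted p = 0.0575), with the mitochondrial covariate (0.207) and, in 2 alternatives chosen after seeing the data, with identical rows collapsed (0.0501) and without the hIAPP library of set 4 at 11.1 mM (0.0563). Over all genes the count at 16.7 mM was 3371, against 1301 without the block, 814 with the mitochondrial covariate, 2108 without mIAPP set 7 and 1623 to 3841 with 1 set left out. At 11.1 mM it was 21, and 35 by DESeq2; with glucose in hIAPP islets 10768, and 3703 with the covariate. For the interaction it was 513, against 196 without the block, 331 with the covariate, 959 by DESeq2, 946 by limma voom and 239 to 558 with 1 set left out. The causes were not tested. Among genes of the lists, Crem lost its interaction with the mitochondrial covariate (0.56, adjusted p = 0.0595) and without set 1, 2, 4 or 8, Ccl2 without set 1 (3.855, adjusted p = 0.051), and Txnrd1 without the block (0.505, adjusted p = 0.0574) and with the covariate (0.328, adjusted p = 0.0677); Hmox1 at 16.7 mM missed with the covariate (0.484, adjusted p = 0.138). With 1 set left out, calls at 16.7 mM were also lost for Mafa (set 1), Map2k2 and Map2k4 (set 1, 2, 6 or 7), Mrtfb (set 1, 2, 5, 6 or 7) and Nrl (set 1, 2, 6, 7 or 8). With no low-count filter Nfe2l2, Map2k2, Map2k4, Mrtfb and Nrl missed the threshold (adjusted p = 0.0519 to 0.084).

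Signs turned only for values near 0 that were not past the threshold. With 1 set left out, the log2 changes ran from -0.048 to 0.213 for Fosb at 16.7 mM, and at 11.1 mM from -0.028 to 0.051 for Mafk and from -0.017 to 0.165 for Fosl2. With glucose they ran from -0.042 to 0.045 for Jund in hIAPP islets, and in mIAPP islets from -0.042 to 0.115 for Jun, -0.055 to 0.122 for Junb and -0.082 to 0.02 for Mafk. Jund with glucose in hIAPP islets was also 0.031 with no low-count filter, 0.001 by limma voom, 0.038 with the covariate and 0.01 without the hIAPP library of set 4 at 11.1 mM, and Mafk at 11.1 mM was 0.01 with no low-count filter. With the covariate, the glucose changes in mIAPP islets were -0.011 for Jun, -0.085 for Junb and 0.017 for Mafk. The interaction of Fos was 0.064 without the hIAPP library of set 4 at 11.1 mM, and ran from -0.261 to -0.032 with 1 set left out. Depth limits Fosl1, at 0 to 12 counts in a library.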
